A study of Mus musculus with 14 samples.

Results

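The immediate early AP-1 genes described here are *Jun*, *Junb*, *Jund*, *Fos*, *Fosb*, *Atf3*, *Egr1*, *Ier2* and *Zfp36*, chosen by symbol from a fixed list. All 9 were measured in each table, among 19322 genes in E10 single cells, 19424 in E11 single cells and 19425 in whole intra-aortic haematopoietic clusters (wIAHCs). *Jun*, *Junb* and *Jund* encode the Jun proteins, and *Fos* and *Fosb* encode Fos proteins. A Jun protein pairs with another Jun, with a Fos or with an ATF protein such as Atf3 to form the transcription factor AP-1. Immediate early genes are transcribed within minutes of a stimulus from existing transcription factors, without new protein synthesis, and their mRNAs are short-lived. They respond to growth factors, to shear stress in endothelium, and to tissue dissociation and cell sorting. *Egr1* encodes a zinc-finger transcription factor, *Ier2* an immediate early nuclear protein, and *Zfp36* (tristetraprolin) an RNA-binding protein that promotes decay of mRNAs with AU-rich elements, *Fos* mRNA among them.

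The series followed the emergence of haematopoietic stem cells (HSCs) from the endothelium of the embryonic aorta, by CEL-Seq of sorted single cells and of wIAHCs. In CEL-Seq, reads come from the 3′ end of mRNAs, and a random tag (unique molecular identifier, UMI) lets amplified copies of 1 molecule be counted once. Embryos were E10 (28 to 32 somite pairs) or E11 (over 40 somite pairs). Non-haemogenic endothelial cells (non-HE, Cdh5+ Gfi1- Gfi1b- c-kit-), haemogenic endothelial cells (HE, the same but Gfi1+) and cells in endothelial-to-haematopoietic transition (EHT, Gfi1+ and c-kit+) came from ICR embryos with the genotype Gfi+/tomato/ Gfi1b+/GFP, in which reporters stood in for Gfi1 and Gfi1b. The other samples came from wild-type C57BL/6 embryos. These were IAHC cells (c-kit+ CD31+ at both stages, and c-kit+ without CD31 selection at E11), E11 pre-HSCs (c-kit+ Cdh5+) of type I (CD45-) and type II (CD45+), c-kit+ yolk sac (YS) haematopoietic stem and progenitor cells (HSPCs), and wIAHCs. Single cells of the aorta-gonad-mesonephros region were sorted after dissection and digestion. Pooling and collagenase digestion for 1 hour are stated for the sorts of IAHC cells. For non-HE, HE and EHT cells and pre-HSCs only digestion is stated. Injection of anti-c-kit antibodies into the aorta before dissection is stated for pre-HSCs and for intra-aorta staining of IAHC cells. Non-HE, HE, EHT and YS cells were stained after digestion. The wIAHCs were picked mechanically from live slices of embryos, with their dorsal or ventral position recorded.

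Single cells were deposited at 3000 transcripts per cell at E10 (546 cells) and 5000 at E11 (575 cells), in 13 populations of 30 to 201 cells. Each population is 1 sample in the labels, except that both pre-HSC types share 1 sample, and cells are not replicates. No test was therefore run between populations. Cells whose column names share a stem are called a sorted set, and each population held 1 to 5 sets. Non-HE, HE and EHT cells share 1 strain and the other populations another. Strain and population therefore cannot be told apart wherever non-HE, HE or EHT cells are set beside IAHC cells, pre-HSCs or YS cells. This includes orders and correlations over all populations. A set cannot be told apart from its population where a population holds 1 set. E10 non-HE cells carry early E11 in their column names, HE cells E10.5, and EHT cells E10.5 or late E10. If these names give embryo age, age and population cannot be told apart between E10 non-HE and HE cells. The stage of E10 non-HE cells is then also uncertain in the comparison with E11 non-HE cells. The 7 endothelial markers (*Cdh5*, *Pecam1*, *Kdr*, *Tek*, *Vwf*, *Gja5* and *Emcn*) summed to 26.4 transcripts per cell in E10 non-HE cells, 19.9 in HE, 5.64 in EHT, 3.67 in IAHC and 0.213 in YS cells (5 of 7 detected). At E11 they summed to 17.3 in non-HE, 23.02 in HE, 7.68 in EHT, 4.70 in type I, 2.41 in type II, 4.17 in c-kit+CD31+ IAHC, 2.47 in c-kit+ IAHC and 0.457 in YS cells (6 of 7 detected). A list of 6 haematopoietic markers summed to between 0.143 and 0.643 in the 4 HE and non-HE populations and to between 2.11 and 4 in the other 9.

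Promoter sequences close to the start of the members were searched for regulatory motifs. In the RefSeq promoter table (GRCm38.p6), 7 of the 9 genes had an entry, among 32851 promoters. The 250 bases upstream of the RefSeq start were searched on both strands for the cAMP response element (CRE, TGACGTCA), its core (the first 5 letters of the CRE, so that each full CRE also counts as a core), the AP-1 site (TGANTCA), a CRE variant (TGACATCA, which does not hold the core) and the CArG box, the site of serum response factor. TATAAA was searched in the direction of transcription only. The CRE core was found upstream of *Junb*, *Fos*, *Fosb* and *Atf3*, and in 17.8% of all promoters. The CRE variant was found upstream of *Jun* and in 2.93% of all promoters, TATAAA upstream of *Fos* and in 7.59%, and a CArG box upstream of *Zfp36* and in 1.467%. The full CRE (1.55% of all promoters) and the AP-1 site (6.75%) were not among the letters of these windows in any of the 7. A match describes letters only, and a motif not found here may lie farther than 250 bases upstream, which was not searched.

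The last 130 bases before the RefSeq start are shown for the 5 members with a match in them, on the strand of the gene. Capitals mark the CRE core, the CRE variant or the CArG box. The TATAAA of *Fos* also lies in its window and is left in lower case. *Fos* (chr12:85473760-85473889, plus strand) has CRE cores starting 66 and 129 bases upstream, *Fosb* (chr7:19310046-19310175, minus strand) has a core at 60 and *Junb* (chr8:84978749-84978878, minus strand) at 106. *Jun* (chr4:95052223-95052352, minus strand) has the CRE variant at 45, and *Zfp36* (chr7:28379229-28379358, minus strand) the CArG box at 58.
Fos: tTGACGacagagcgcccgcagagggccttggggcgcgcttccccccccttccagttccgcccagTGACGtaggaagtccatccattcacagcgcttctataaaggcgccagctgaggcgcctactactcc
Fosb: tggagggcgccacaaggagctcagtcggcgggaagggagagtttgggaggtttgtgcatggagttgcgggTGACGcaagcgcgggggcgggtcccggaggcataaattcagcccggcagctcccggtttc
Junb: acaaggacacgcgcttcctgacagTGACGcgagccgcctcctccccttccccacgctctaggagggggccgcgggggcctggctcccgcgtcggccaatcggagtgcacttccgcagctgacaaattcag
Jun: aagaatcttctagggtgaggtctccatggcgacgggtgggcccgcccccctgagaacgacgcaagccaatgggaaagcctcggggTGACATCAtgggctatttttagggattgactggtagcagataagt
Zfp36: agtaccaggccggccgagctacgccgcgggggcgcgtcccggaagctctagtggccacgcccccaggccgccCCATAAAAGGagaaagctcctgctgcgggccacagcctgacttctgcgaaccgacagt

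In the GENCODE annotation of the same assembly, *Jun* (chr4:95049034-95052222), *Jund* (chr8:70698949-70700616) and *Ier2* (chr8:84661331-84662852) are single-exon genes. *Fos* (chr12:85473890-85477273) has 4 exons, *Fosb* (chr7:19302696-19310051) and *Atf3* (chr1:191170296-191218039) have 5 each, and *Junb* (chr8:84974484-84978718) and *Zfp36* (chr7:28376784-28380253) have 2 each. *Egr1*, with 3 exons, lies on chromosome 18. The RefSeq start used for the promoters is that of the GENCODE gene for *Fos* and *Jun*, lies upstream of it for *Junb*, and lies inside the GENCODE gene for *Fosb* and *Zfp36*, so that the whole *Zfp36* window is within that gene. *Jun* overlaps Junos, *Jund* overlaps Gm11175 and *Zfp36* overlaps Gm44710, all antisense, and *Junb* overlaps *Prdx2* and *Atf3* overlaps Gm24748 on the opposite strand. Use of strand in counting is not given in the sources used here, so reads of each gene and its partner cannot be told apart.

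The summed level of the members was lowest in YS HSPCs at both stages and highest in non-HE cells at E10. Levels are given as the mean number of transcripts per cell, scaled to 3000 transcripts, with exact 95% Poisson intervals that cover counting error only. In the sum of the 9 members each transcript counts once, so that members with more transcripts weigh more. At E10 the sum was 8.19 (7.35 to 9.09) in non-HE, 4.12 (3.73 to 4.55) in HE, 3.31 (3.06 to 3.58) in EHT, 3.04 (2.654 to 3.47) in IAHC and 0.887 (0.738 to 1.06) in YS cells. The intervals of EHT and IAHC cells overlapped, and those of the other neighbours in this order did not. Both non-HE sets (7.14 and 10.13) were above both HE sets (3.33 and 5.43), while the range of the EHT sets (3.05 to 3.56) overlapped that of HE.

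At E11 the sum was 6.06 (5.40 to 6.78) in non-HE, 5.63 (5.12 to 6.19) in HE, 4.597 (4.37 to 4.83) in c-kit+CD31+ IAHC, 4.45 (3.99 to 4.95) in EHT, 3.07 (2.74 to 3.42) in type I, 2.28 (1.98 to 2.61) in type II, 2.08 (1.85 to 2.32) in c-kit+ IAHC and 1.53 (1.26 to 1.83) in YS cells. Non-HE and HE cells, c-kit+CD31+ IAHC and EHT cells, and type II and c-kit+ IAHC cells could not be separated from each other by counting error. Sets of the same population differed widely at E11. The 4 sets of c-kit+CD31+ IAHC cells ranged from 3.29 to 5.42, the 5 sets of c-kit+ IAHC cells from 0.771 to 3.64, the 3 type I sets from 1.59 to 3.90 and the 3 type II sets from 1.44 to 3.54. Erythroid transcripts also differed between the pre-HSC sets, from 0.075 to 4.77 in type I and from 0.06 to 2.79 in type II, and their part in the result was not tested.

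**Figure D1:**
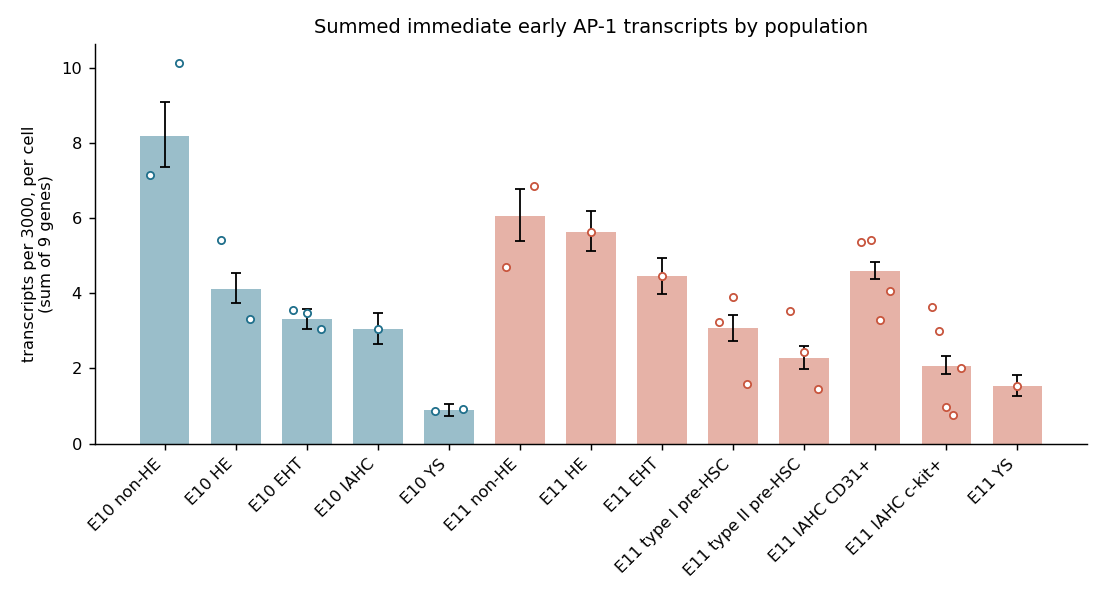
Summed transcripts of the 9 genes per cell, scaled to 3000 transcripts (y axis), in the 13 sorted populations (x axis). Bars are population means with exact 95% Poisson intervals and circles are sorted sets, with E10 in blue and E11 in red. The bar of E10 non-HE cells (8.19) is the tallest and that of E10 YS cells (0.887) the shortest.

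*Jun*, whose protein is the main partner of Fos in AP-1, had levels of 1.86 in non-HE, 1.33 in HE, 0.990 in EHT, 1.34 in IAHC and 0.142 in YS cells at E10. At E11 it was 1.6 in non-HE, 2.00 in HE, 1.53 in EHT, 1.06 in type I, 0.731 in type II, 1.36 in c-kit+CD31+ IAHC, 0.647 in c-kit+ IAHC and 0.352 in YS cells. *Jun* was thus highest in non-HE and lowest in EHT cells of the aorta at E10, and lower still in the YS. Its E10 non-HE sets were far apart (1.14 and 3.20), and the lower of them lay within the range of the HE sets (0.951 to 1.95).

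*Jund*, the Jun gene that is usually expressed without stimulation, was 1.28 in non-HE, 0.980 in HE, 0.901 in EHT, 0.260 in IAHC and 0.0993 in YS cells at E10. At E11 it was 0.880 in non-HE, 0.913 in HE, 0.848 in EHT, 0.184 in type I, 0.316 in type II, 0.839 in c-kit+CD31+ IAHC, 0.169 in c-kit+ IAHC and 0.130 in YS cells. *Jund* thus separated the endothelial and EHT populations, with c-kit+CD31+ IAHC cells at E11, from the rest. The c-kit+CD31+ IAHC sets split, with 1.476 and 0.997 in 2 sets and 0.367 and 0.419 in the other two. *Junb*, the third Jun gene, was 0.651 in E10 non-HE, 0.235 in HE, 0.0942 in EHT, 0.123 in IAHC and 0.0638 in YS cells, and at E11 it ranged from 0.0873 in type II to 0.417 in HE cells.

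*Fos*, the typical immediate early gene of the group, was the member that most separated non-HE cells from all others. At E10 it was 1.419 (1.09 to 1.82) in non-HE, 0.265 (0.173 to 0.389) in HE, 0.204 (0.145 to 0.279) in EHT, 0.110 (0.0473 to 0.216) in IAHC and 0.0284 (0.00773 to 0.0726) in YS cells. At E11 it was 1.16 (0.881 to 1.5) in non-HE, 0.430 in both HE and EHT, 0.377 in type I, 0.186 in type II, 0.352 in c-kit+CD31+ IAHC, 0.283 in c-kit+ IAHC and 0.117 in YS cells. Both E10 non-HE sets (1.32 and 1.6) were above every other set of either stage except the E11 non-HE set of 19 cells (1.45). The other E11 non-HE set (0.655) was below the highest set of c-kit+ IAHC cells (0.72). *Fos* was detected in 48.8% of E10 non-HE cells (33.3% to 64.5%, exact Clopper-Pearson) and in 2.13% of E10 YS cells, both at 3000 transcripts. In 1 set of each pre-HSC type it was seen in 0 of 20 cells.

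*Fosb*, a close relative of *Fos*, was 0.372 in E10 non-HE cells and between 0.0959 and 0.126 in HE, EHT and IAHC cells. At 3000 transcripts per cell it was detected in 0 of 141 E10 YS cells, a count of 0 that limits the share of cells with a UMI to 2.13% and does not limit the share of expressing cells. At E11 its highest level was in c-kit+CD31+ IAHC cells (0.343, sets 0.159 to 0.508), above non-HE (0.160), EHT (0.157), HE (0.117), type I (0.106), type II (0.0982), c-kit+ IAHC (0.0607) and YS cells (0.0391). The intervals of c-kit+CD31+ IAHC (0.283 to 0.412) and non-HE cells (0.0691 to 0.315) overlapped. *Atf3*, which encodes a stress-induced partner of Jun, was 0.186 in E10 non-HE cells and at or below 0.0816 elsewhere at E10. At E11 it was 0.240 in non-HE, 0.184 in type I, 0.143 in HE and 0.101 in c-kit+CD31+ IAHC cells, at or below 0.0652 in the others and at 0 in YS cells.

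*Egr1* was less spread across the E10 populations, with 0.349 in non-HE, 0.204 in HE, 0.120 in EHT, 0.123 in IAHC and 0.0638 in YS cells. At E11 its highest level was in c-kit+CD31+ IAHC cells (0.496, 0.423 to 0.577), followed by HE and EHT (0.365 each), non-HE (0.340), type II (0.229), type I (0.174), c-kit+ IAHC (0.135) and YS cells (0.130). That interval overlapped those of HE and EHT (0.243 to 0.528 each) and non-HE cells (0.198 to 0.544), and the higher non-HE set was at 0.537. *Ier2* was the member that differed least between populations, from 0.461 in YS to 1.419 in non-HE cells at E10 and from 0.404 in YS to 1.08 in HE cells at E11. *Zfp36* was 0.651 in E10 non-HE, 0.102 in HE, 0.152 in EHT, 0.0274 in IAHC and 0.0213 in YS cells. At E11 it was 0.420 in non-HE, 0.248 in EHT, 0.213 in type I, 0.170 in HE, 0.104 in YS, 0.0876 in c-kit+ IAHC, 0.0657 in c-kit+CD31+ IAHC and 0.0545 in type II cells. The E11 intervals of non-HE (0.26 to 0.642) and EHT cells (0.149 to 0.387) overlapped.

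**Figure D2:**
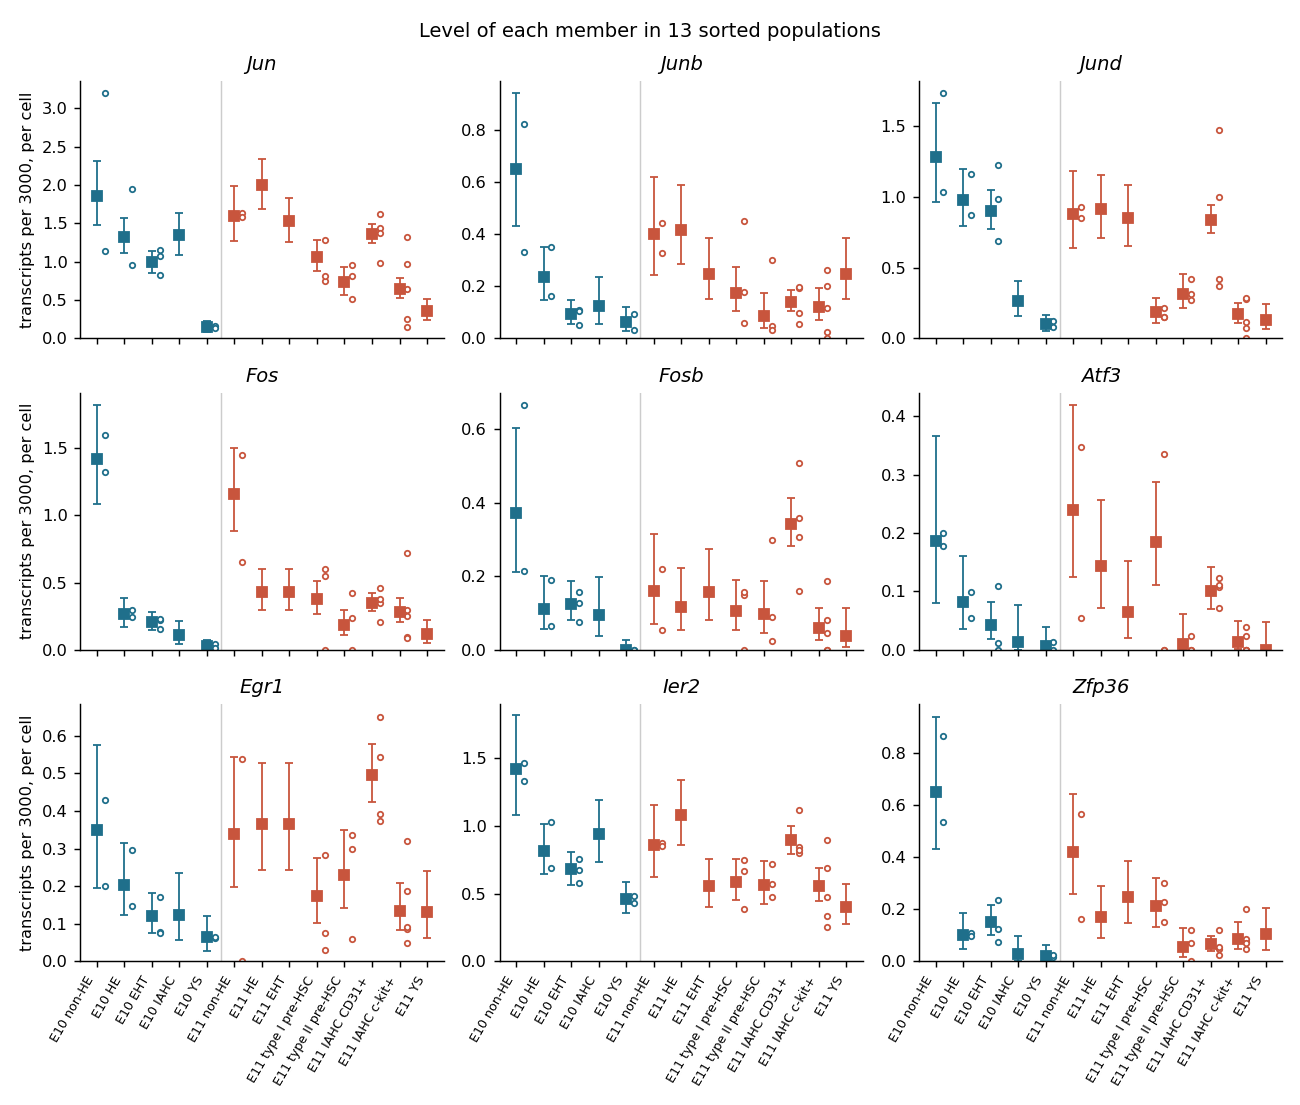
Level of each gene in transcripts per 3000 per cell (y axis, a scale of its own in each panel) in the 13 populations (x axis). Squares are population means with exact 95% Poisson intervals, circles are sorted sets, E10 is blue and E11 is red. *Fos* and *Zfp36* have their highest means in non-HE cells of both stages, and *Egr1* in E11 c-kit+CD31+ IAHC cells (0.496). At E11 these intervals of *Zfp36* and *Egr1* overlap those of other populations.

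The steps along the path from endothelium to IAHC cells were compared by a 2-fold difference between log2(level + 0.05) of the populations, among genes with a level of at least 0.1 in either population. Of 40 calls of members in 16 comparisons, 18 were lost without the 1 cell of either population that held most transcripts of that member, a check added after seeing the data, and 25 at a pseudocount of 0.2. From non-HE to HE cells at E10, 4 of the 9 members were called lower and 0 higher, beside 6.76% and 7.59% of all genes. *Fos* was 4.66-fold lower, *Zfp36* 4.61-fold, *Fosb* 2.60-fold and *Junb* 2.46-fold. The sets of both populations did not overlap for *Fos*, *Fosb* and *Zfp36*, and overlapped for *Junb*. The calls of *Fos* and *Zfp36* held without any single set, whereas *Junb* and *Fosb* were lost without the HE set of 61 cells, *Junb* without the non-HE set of 28 cells and *Fosb* without that of 15 cells. *Junb* was also lost without its richest non-HE cell, whereas *Fos*, *Fosb* and *Zfp36* were still called. These non-HE and HE cells also carry different stages in their column names.

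Other immediate early genes were lower at this step as well. Of a list of 24, 19 reached the level required, 13 were called lower and 0 higher. The 13 were *Nr4a1*, *Ier3*, *Ier5*, *Klf2*, *Klf4*, *Dusp1*, *Btg1*, *Btg2*, *Cyr61*, *Rhob*, *Gadd45b*, *Nfkbia* and *Socs3*. The median log2 difference of the 19 was -1.49 and that of the members -0.84, beside 0.06 for all 6743 genes. *Klf2*, which encodes a flow-responsive endothelial factor, was 2.86 in non-HE and 0.949 in HE cells. In contrast, of 14 upstream kinases and cofactors of serum response factor (11 at the required level), 0 were lower and *Mapk14* was higher, and of 14 AP-1 relatives (5 at the required level) only *Fosl2* was lower. Of 12 heat shock genes (11 at the required level), *Hspa1a* and *Hspa1b* were lower and *Hsph1* higher. In the same populations the endothelial markers summed to 26.4 and 19.9, the haematopoietic ones to 0.186 and 0.643 and the erythroid ones to 0.093 and 0.694 (HE sets 0.0811 and 1.07), and their part in the result was not tested.

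From HE to EHT cells, 0 of 8 members at the required level were called at E10 and 0 of 9 at E11. Of all genes, 7.44% were lower and 5.21% higher at E10, and 10.3% and 7.96% at E11. The sums differed by -0.31 (log2) at E10 and -0.34 at E11, while the endothelial markers were 19.9 and 5.64 at E10 and 23.02 and 7.68 at E11. At E10, *Junb* passed 2-fold lower without the HE set of 61 cells or without the EHT set of 64 or of 87 cells, and *Egr1* without the HE set of 61 cells or the EHT set of 87. At E11, 7 of 8 macrophage markers were detected in EHT cells (summed level 2.35). Without the cells that held at least 4 of them the member sum was 3.98, and *Junb* and *Atf3* passed 2-fold lower than in HE cells.

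From EHT to IAHC cells at E10, *Jund* was 3.06-fold and *Zfp36* 2.61-fold lower, as were 8.63% of all genes, and 3.38% were higher. The erythroid markers summed to 0.0419 in these EHT and 1.59 in IAHC cells, and their part in the result was not tested. From EHT to c-kit+CD31+ IAHC cells at E11, *Zfp36* was 2.58-fold lower (11.3% of all genes lower and 5.55% higher), and *Jund* had similar means (0.848 and 0.839), with IAHC sets at 1.476, 0.997, 0.419 and 0.367. The call of *Zfp36* was lost without cells that held at least 4 macrophage markers. From EHT to type I pre-HSCs, *Jund* was 3.84-fold lower (10.9% of all genes lower) and *Atf3* 2.03-fold higher (4.44% higher). The erythroid markers summed to 0.0522 in E11 EHT and 2.15 in type I cells and the macrophage markers to 2.35 and 0.407, and their part in the result was not tested. From type I to type II, *Atf3* was 3.84-fold and *Zfp36* 2.51-fold lower, beside 2.26% of all genes, and 1.77% of all genes were higher. The call of *Zfp36* was also lost without the type II set of 20 cells. Sets of both types that share a number in their column names had sums of 3.23 and 3.54, 3.90 and 2.45, and 1.59 and 1.44 in type I and type II, and in all 3 of these pairs *Zfp36* and *Junb* were lower and *Jund* and *Egr1* higher in type II. Without the type I set of 34 cells *Fos*, *Fosb* and *Egr1* also passed 2-fold lower than in EHT cells, *Atf3* was lost in both comparisons and *Egr1* passed higher in type II. *Fos* passed lower in type II when any 1 of 3 other sets was left out, and *Junb* when either of 2 of them was.

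The *Atf3* values of type I pre-HSCs came almost entirely from 1 cell. This cell held 84 member transcripts, 1.68% of its transcripts and 26.5% of those of the population, where the next highest cell held 16. Its transcripts were 24 of *Jun*, 18 of *Atf3* (of 19 in the population), 17 of *Fos*, 11 of *Zfp36* and 7 of *Junb*. Without it the sum was 2.29, the *Atf3* level 0.00984, and the calls of *Atf3* in both comparisons and of *Zfp36* in type II were lost, whereas the call of *Jund* held.

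From non-HE to HE cells at E11, *Fos* was 2.52-fold and *Zfp36* 2.14-fold lower, and 6.01% of all genes were lower and 7% higher. The E11 non-HE sets were 0.655 and 1.45 for *Fos*, beside 0.430 in the single HE set. Both calls were lost without the non-HE set of 19 cells, and *Egr1* (0 in the set of 11 cells) then passed 2-fold higher in HE cells. Of the other immediate early genes 2 of 18 were lower, *Cyr61* and *Socs3*. Whether the E11 step differed from the E10 step was not tested.

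The 2 sorts of E11 IAHC cells differed in most members. In c-kit+ IAHC cells, 5 of 8 members were lower than in c-kit+CD31+ IAHC cells, beside 1.74% of all genes, and 0 were higher, beside 1.3453%. *Jund* was 4.07-fold lower, *Fosb* 3.55-fold, *Egr1* 2.95-fold, *Atf3* 2.39-fold and *Jun* 2.03-fold. *Fos* (0.283 and 0.352), *Junb* (0.121 and 0.140) and *Ier2* (0.560 and 0.896) did not reach 2-fold. The sets of both sorts did not overlap for *Jund*, *Egr1* and *Atf3*. Of the other immediate early genes, 5 of 14 were lower (*Ier3*, *Klf2*, *Klf6*, *Btg2* and *Rhob*), and of 11 heat shock genes, 11 kinases and cofactors and 4 AP-1 relatives 0 were called. The mesenchymal markers summed to 0.661 in c-kit+ and 0.412 in c-kit+CD31+ IAHC cells and the endothelial ones to 2.47 and 4.17. In c-kit+ cells that met the purification rule of the study for IAHC cells, the member sum was 1.51 and *Fos* passed 2-fold lower. *Atf3* was 0.101 in c-kit+CD31+ IAHC cells, just above the minimum level of 0.1, and under this rule it was below that minimum, so that its call was lost whatever its fold. *Jund*, *Egr1* and *Fosb* were called without any single set, *Jun* was lost when any 1 of 4 sets was left out, and *Atf3*, again through the minimum level, when any 1 of 3 was.

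YS HSPCs had the lowest summed member level at both stages, although at E11 *Junb* and *Zfp36* were not lowest there. At E10, 3 of 6 members were lower than in IAHC cells (*Jun* 7.26-fold, *Jund* 2.08-fold and *Fos* 2.04-fold), beside 9.97% of all genes (5.22% were higher), and *Jund* and *Fos* were lost without the YS set of 76 cells. Against IAHC cells that met the purification rule, *Jund* was lost, *Fosb* and *Ier2* passed and 4 of 7 members were lower. At E11, 7 of 9 were lower than in c-kit+CD31+ IAHC cells, beside 8.62% of all genes, and 2.22% were higher. *Jund* was 4.93-fold, *Fosb* 4.41-fold, *Jun* 3.52-fold, *Egr1* 3.02-fold, *Fos* 2.40-fold and *Ier2* 2.08-fold lower, and *Atf3*, at 0 transcripts in YS cells, at least 2.59-fold lower, against a floor of 3 transcripts in the population. The call of *Atf3* was lost through the minimum level when any 1 of 3 IAHC sets was left out, and that of *Ier2* without the IAHC set of 50 cells. *Zfp36* went the other way without reaching 2-fold (0.104 in YS and 0.0657 in IAHC cells). *Junb* was 0.248 in YS and 0.140 in IAHC cells, but 14 of its 19 YS transcripts were in 1 cell, without which the YS level was 0.0667. Of the other immediate early genes 7 of 13 were lower in YS cells at E10 and 8 of 14 at E11, *Ier5*, *Klf2*, *Dusp1*, *Dusp6* and *Btg2* at both stages, with *Nr4a1* and *Btg1* among the 7 and *Klf6*, *Rhob* and *Zfp36l1* among the 8. The 9 erythroid markers summed to 1.61 in YS and 1.59 in IAHC cells at E10, and to 3.07 in YS and 0.134 in c-kit+CD31+ IAHC cells at E11, and their part in the result was not tested.

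Between stages, the median log2 difference of all genes was -0.16 to -0.35, so members are read against that shift. From E10 IAHC cells to E11 c-kit+CD31+ IAHC cells, sorted alike, the median of the members was 1.292 against -0.27 for all genes. *Egr1* was 3.15-fold higher at E11, *Jund* 2.87-fold, *Fosb* 2.70-fold, *Fos* 2.52-fold and *Atf3* 2.38-fold. These are 5 of 8 members, beside 2.39% of all genes higher and 3.98% lower. *Jun* (1.34 and 1.36) and *Ier2* (0.945 and 0.896) were level. *Jund*, *Fos*, *Fosb* and *Egr1* were still called when any 1 E11 set was left out. For *Jund*, however, 2 of the 4 E11 sets (0.367 and 0.419) were near the E10 level of 0.260 and the other two (1.476 and 0.997) carried the difference. *Atf3* was lost through the minimum level when any 1 of 3 sets was left out, and *Fos* and *Atf3* were lost among cells that met the purification rule. E10 IAHC cells came from 1 set, so that set and stage cannot be told apart. Between the same E10 and E11 cells the 9 erythroid markers summed to 1.59 and 0.134, *Hspa1b* was 0.808 and 0.182 and *Hspa1a* 0.575 and 0.245, and their part in the result was not tested. Set against the same E10 IAHC cells, E11 c-kit+ IAHC cells had *Fos* 2.09-fold higher (2.8% of all genes higher), 0 of 6 members lower (7.4%) and a member median of -0.26 beside -0.35 for all genes. In these E11 and E10 cells *Jun* was 0.647 and 1.34, *Jund* 0.169 and 0.260, and *Egr1* 0.135 and 0.123. In YS cells 4 of 7 members were higher at E11 (*Junb*, *Zfp36*, *Fos* and *Jun*, 2.10 to 2.62-fold), beside 3.44% of all genes (9.94% lower) and a median of -0.35. In 1 E11 YS cell there were 32 member transcripts, 27.4% of the population, and without it only *Junb* passed. The *Junb* value in turn rested on another cell, without which its level was 0.0667, beside 0.0638 at E10, and its call was lost. *Jun* and *Fos* were also lost without the E10 set of 76 cells, and *Junb* and *Fos* with E11 cells thinned to 3000 transcripts. In EHT cells *Egr1* and *Junb* were 2.44-fold and 2.06-fold higher at E11 (3.75% of all genes higher and 6.28% lower, median -0.27), and both were lost without cells holding at least 4 macrophage markers, *Junb* also without the E10 set of 40 cells or with E11 cells thinned to 3000 transcripts. In HE cells 0 members reached 2-fold (4.96% of all genes higher and 8.48% lower), but *Jun*, *Junb* and *Egr1* did without the E10 set of 37 cells. In non-HE cells *Fosb* was 2.01-fold lower (9.28% of all genes lower and 6.2% higher), and its call was lost without the E10 set of 15 or the E11 set of 11 cells. Without the E11 set of 19 cells *Fos*, *Zfp36*, *Egr1* and *Atf3* passed as well.

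The number of members detected per cell also differed between populations. With all cells at 3000 transcripts, 13 of 43 E10 non-HE cells (30.2%, 17.2% to 46.1%, exact Clopper-Pearson) held 5 or more members, as did 6.12% of HE, 5.24% of EHT and 0.709% of YS cells and 1 of 73 IAHC cells. At E11 the shares were 26.7% of non-HE, 14.9% of c-kit+CD31+ IAHC and 10.9% of EHT cells, 9 of 46 HE cells, and at most 3.23% in the other 4 populations. Cells with 0 members made up 50.4% of E10 YS and 43.5% of E11 YS cells, and 4.65% of E10 non-HE and 2.17% of E11 HE cells. The median correlation between pairs of members across cells was 0.283 in E10 non-HE (15 pairs, highest *Junb* and *Zfp36* at 0.540), 0.191 in HE (15 pairs), 0.172 in EHT (28 pairs, highest *Fos* and *Egr1* at 0.448) and 0.180 in E11 c-kit+CD31+ IAHC cells (36 pairs, highest *Jund* and *Fosb* at 0.427). These are descriptions over 43, 98, 191 and 201 cells of shared depth, and single cells with many members weigh heavily in them. In E10 IAHC cells only 3 pairs had enough cells, with a median of 0.0174, and the cell with most member transcripts held 18, all of *Jun*. In E10 YS cells the median was -0.04 (2 of 3 pairs below 0), in E11 c-kit+ IAHC cells 0.05 (10 pairs), and in the other 5 populations with enough cells it lay between 0.122 and 0.233. Whether members shared cells more than their own levels give was not tested.

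**Figure D3:**
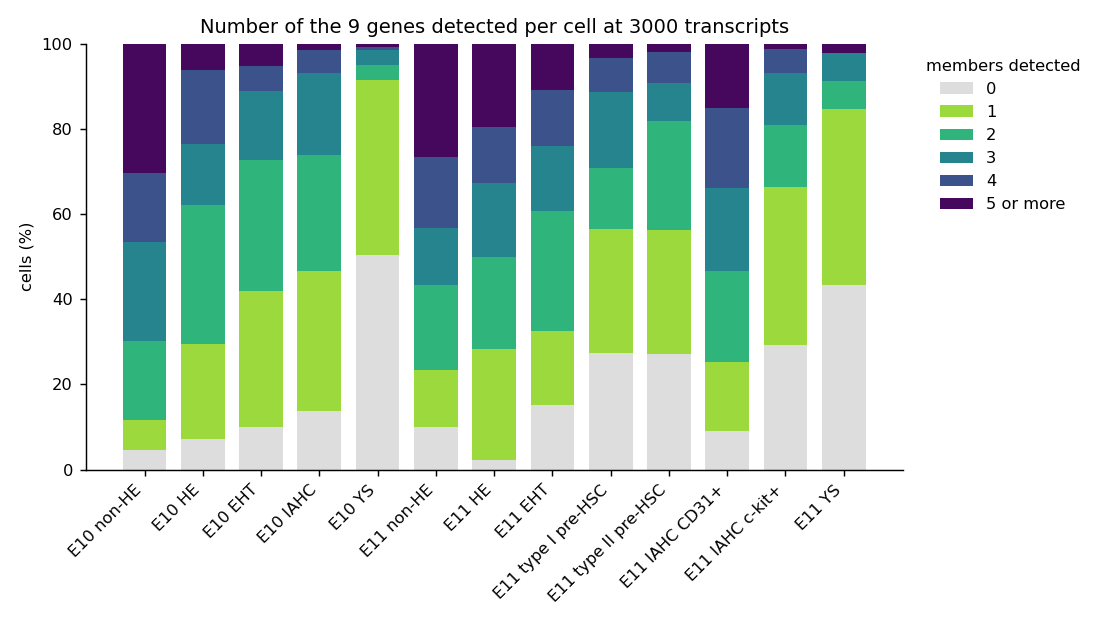
Percentage of cells (y axis) in each population (x axis) by the number of the 9 genes detected, at 3000 transcripts per cell. Non-HE cells of both stages have the largest share with 5 or more genes (30.2% and 26.7%), and YS cells have the largest share with 0 (50.4% and 43.5%).

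Over the 13 populations, the members followed their own sum with Pearson correlations of log2 levels between 0.738 (*Zfp36*) and 0.954 (*Jun*), each member being part of the sum. The closest pair of members was *Fos* and *Zfp36* (0.902) and the least alike *Ier2* and *Zfp36* (0.458). Among 5823 other genes, the 10 most like the sum were *Klf2* (0.962), *Gpr124* (0.958), *Rasip1* (0.955), *Cd93* (0.954), *Ccm2l* (0.951), *Vwf* (0.945), *Cldn5* (0.945), *Ccnjl* (0.945), *Spata13* (0.944) and *Lrrc8a* (0.944). All 10 were highest in E10 non-HE and lowest in E10 YS cells. *Cd93*, *Cldn5* and *Vwf* are known from endothelium, and *Vwf* is also in the endothelial marker list. By rank correlation *Klf2*, *Rasip1* and *Vwf* remained among the 10 most alike. The populations share libraries and depth, and these correlations are descriptions over 13 points.

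In wIAHCs, 57 of 109 libraries held at least 5000 transcripts, 7 E10 dorsal, 21 E10 ventral, 12 E11 dorsal and 17 E11 ventral, with 5099 to 115328 transcripts each. By the stems of their column names, E11 libraries fall into 2 sets, called collection sets here, and E10 libraries into 1. No set holds both stages, so set and stage cannot be told apart. Each library is the RNA of a cluster of cells, so fewer cells of a type and less RNA per cell cannot be told apart. Which wIAHCs share an embryo is not known, so p-values may be too small. Values are transcripts per 10,000, pooled over the libraries of a group. *Fos* was 0.696 in E10 dorsal wIAHCs (in 5 of 7 libraries, lowest 0, median 0.732, highest 7.59), 0.275 in E10 ventral (6 of 21, median 0, highest 8.44), 0 in E11 dorsal (0 of 12) and 0.578 in E11 ventral wIAHCs (3 of 17, median 0, highest 2.651). Libraries with 0 occurred in all 4 groups, so the groups overlapped.

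*Fosb* was 0.598 in E10 dorsal (4 of 7 libraries, highest 3.69), 0.276 in E10 ventral (7 of 21, highest 1.65), 0 in E11 dorsal (0 of 12) and 0.181 in E11 ventral wIAHCs (3 of 17, highest 2.41). *Junb* and *Atf3* were also at 0 in all E11 dorsal libraries. In E10 dorsal wIAHCs *Junb* was 0.298 (3 of 7 libraries, 1 of them with 50.07% of its transcripts) and *Atf3* 0.199 (1 of 7). With 3 transcripts set in place of the count of 0, E10 dorsal *Junb* was at least 1.255-fold higher. The same lower bound for *Atf3* was 0.839, which is below 1, so it cannot decide whether *Atf3* differed. *Jun* was found in 7 of 7 E10 dorsal libraries (2.72, lowest 1.214, median 3.25, highest 4.53), 14 of 21 E10 ventral (2.48), 4 of 12 E11 dorsal (1.04, median 0, highest 8.22) and 15 of 17 E11 ventral libraries (2.21). *Jund* was present in 5 of 7, 21 of 21, 8 of 12 and 15 of 17 libraries of these groups, at 2.57, 2.40, 1.59 and 1.759. The sum of the members was 9.81, 8.12, 3.98 and 7.30, so that E11 dorsal wIAHCs were the lowest group. They were also the shallowest, with a median of 8244 transcripts beside 14063 in E10 dorsal libraries.

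**Figure D4:**
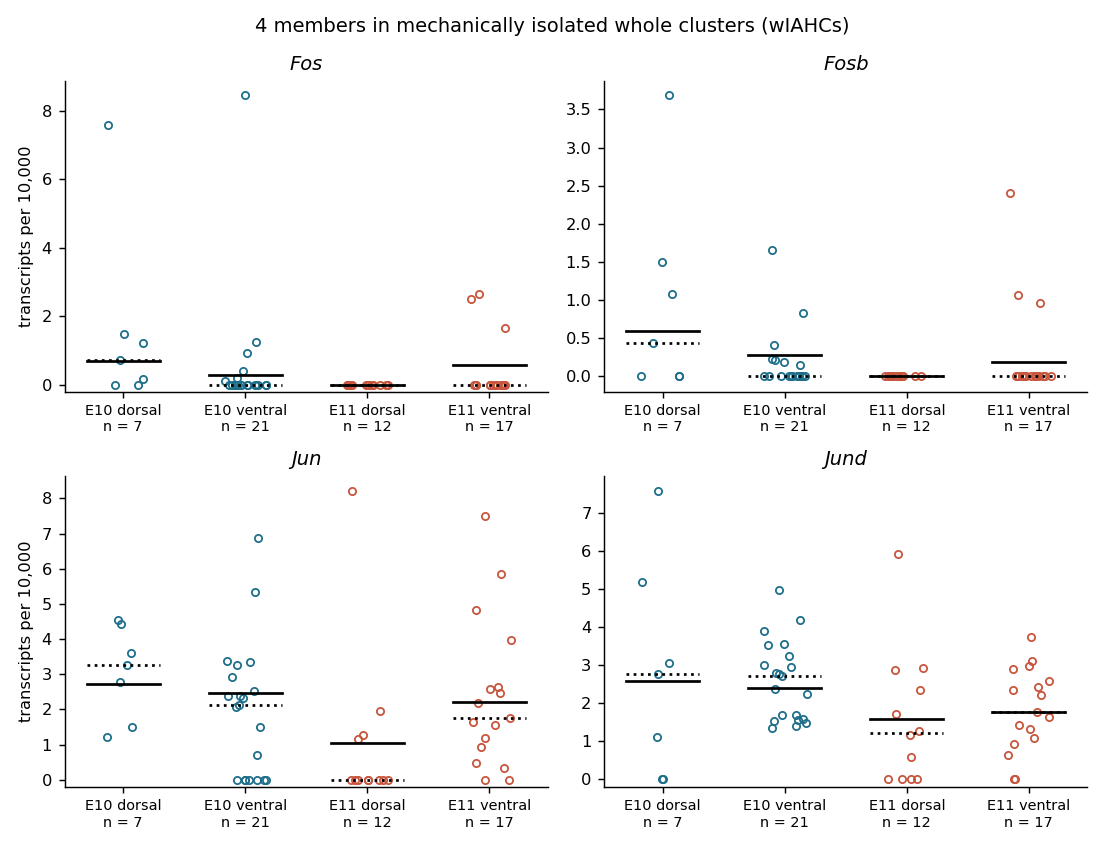
Transcripts per 10,000 (y axis) of *Fos*, *Fosb*, *Jun* and *Jund* in each wIAHC library, by stage and side (x axis, number of libraries given as n). Circles are libraries, solid lines are pooled values and dotted lines are medians. *Fos* and *Fosb* are at 0 in all 12 E11 dorsal libraries.

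None of the members passed edgeR's filter on low counts, which kept 260 genes, so none was tested in that fit. It called 31.2% of these genes between stages on the ventral side, 9.23% on the dorsal side (7.31% higher and 1.92% lower at E11), and 0 for the other contrasts. In the fit without the filter (13627 genes), *Fos* was lower in E11 than in E10 dorsal wIAHCs (log2 difference -4.16, SE 0.98, edgeR adjusted p = 0.00769) and so was *Fosb* (-3.74, SE 0.97, edgeR adjusted p = 0.0244). These fitted values depend on the treatment of zeros. Against a floor of 3 transcripts over the E11 dorsal group (0.237 per 10,000), E10 dorsal *Fos* was at least 2.935-fold and *Fosb* at least 2.52-fold higher. Library 47 held 56.9% of the transcripts of the E10 dorsal group. Without it the bounds were 5.846 and 3.41, without library 46 that of *Fos* was 1.948, and without library 52 that of *Fosb* was 1.575. Of all genes 0.602% were lower, 0.183% higher and 0.785% called in either direction. Of the other members, *Jun* differed by -1.74 (SE 0.55, edgeR adjusted p = 0.11), *Junb*, *Zfp36*, *Ier2*, *Atf3* and *Jund* were below 0 with adjusted p between 0.202 and 0.441, and *Egr1* was at 0.18 (adjusted p = 1). Before adjustment 8 of 9 members had p under 0.05, as did 10.3% of all genes, but 0 did with DESeq2, 4 with RLE scaling, 5 with library totals and 4 without E11 collection set 1. In the TMM fit their median was -1.84 beside -0.09 for all genes. Both calls depended on the processing. They were lost in 6 of 10 other settings each, DESeq2, RLE scaling, library totals and either E11 collection set left out among them, over which edgeR or DESeq2 adjusted p ranged from 0.00656 to 0.621 for *Fos* and from 0.0122 to 0.331 for *Fosb*. *Fos* was also lost without E10 dorsal library 46 (edgeR adjusted p = 0.0619), and *Fosb* without library 47 (0.0509) or 52 (0.144).

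On the ventral side, 0 members differed between E11 and E10 (2.27% of all genes called, 1.3503% higher and 0.925% lower), 0 had an unadjusted p under 0.05, beside 14.75% of all genes, and DESeq2 called 0. *Fos* differed by 0.70 (SE 0.47, edgeR adjusted p = 0.484) there, and *Jun* by -0.18 (SE 0.31, edgeR adjusted p = 0.837). The stage difference of *Fos* was tested against side, and the interaction was 4.86 (SE 1.09, edgeR adjusted p = 0.0123), with 0.154% of all genes called. It was lost in 5 of 10 other settings (edgeR or DESeq2 adjusted p 0.00896 to 0.9999). These were DESeq2, RLE scaling, library totals, a minimum of 10000 transcripts and E11 collection set 1 left out. The interaction was also lost without E10 dorsal library 39 (edgeR adjusted p = 0.0684) or 46 (0.0637). Between ventral and dorsal wIAHCs, 0 members were called at E10 (0.0587% of all genes, 1 member with unadjusted p under 0.05 beside 5.34% of all genes) or at E11 (0.0881% of all genes, 5 members beside 8.93% of all genes), and DESeq2 called 0. The 5 became 2 with RLE scaling, 3 with library totals, 1 without E11 collection set 1 and 0 with DESeq2. *Fos* was nearest at E11, at 3.44 higher on the ventral side (SE 0.93, edgeR adjusted p = 0.11), and was called with the collection set as a term (3.995, SE 0.95, edgeR adjusted p = 0.0296). Since E11 dorsal *Fos* was at 0, these fitted values and that of the interaction are set by the treatment of zeros. Against the floor, E11 ventral *Fos* was at least 2.437-fold higher, and 1.551-fold without ventral library 23 of set 1.

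Of the further lists, without the filter, 0 AP-1 relatives (13 tested), 0 other immediate early genes (21) and 0 kinases and cofactors (14) were called in any wIAHC contrast by edgeR, with up to 4, 6 and 2 at an unadjusted p under 0.05. *Hspa1a* and *Hspa1b*, which encode inducible heat shock proteins, were higher in ventral than in dorsal wIAHCs at E10 (log2 difference 3.03 and 3.69, edgeR adjusted p = 0.019 and 0.00189) and at E11 (3.53 and 3.73, edgeR adjusted p = 0.000948 and 0.000338). Both were lost at both stages with DESeq2 (adjusted p = 1.0), *Hspa1a* at both stages and *Hspa1b* at E11 with RLE scaling or library totals, and both at E11 without E11 collection set 1. *Hspa1a* at E10 was also lost without E10 dorsal library 47 (edgeR adjusted p = 0.242). On the ventral side *Hspd1* (-1.15, edgeR adjusted p = 0.00162), *Hspa8* (-0.60, 0.0384) and *Hspe1* (-0.81, 0.0439) were lower at E11, and with the filter also *Hsp90aa1* (-0.45, 0.0173). On the dorsal side *Hspe1* was lower (-1.55, edgeR adjusted p = 0.00737). Without E11 collection set 2 none of these 4 unfiltered calls held, and with RLE scaling only *Hspd1* did. The dorsal call was also lost without E10 dorsal library 39 (edgeR adjusted p = 0.0519).

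Sorted IAHC cells were set beside wIAHCs of the same stage, as transcripts per 10,000. The tables were made separately, and enzymatic dissociation, sorting and the number of cells per library all differed between them, so these cannot be told apart. At E10 the member sum was 10.1 in single cells and 8.52 in wIAHCs. *Ier2* was higher in single cells (3.15 and 1.34, 8.47% of all genes higher), and *Jund* (0.868 and 2.44) and *Zfp36* (0.0913 and 0.707) were lower (6.32% of all genes lower). *Fosb* was level (0.320 and 0.352). *Fos* was 0.365 in single cells and 0.374 in pooled wIAHCs, but 0.804 with wIAHC libraries weighted equally. At E11 the sum was 15.3 in c-kit+CD31+ IAHC cells and 6.39 in wIAHCs, a 2.40-fold difference. Of the 9 members 6 were higher in these cells, beside 2.6497% of all genes, and 0 were lower (8.03%). They were *Jun* (4.55 and 1.89), *Ier2* (2.98 and 0.921), *Egr1* (1.65 and 0.730), *Fos* (1.17 and 0.419), *Fosb* (1.14 and 0.131) and *Atf3* (0.338 and 0.0437). In c-kit+ IAHC cells the sum was 6.92, 0 of 7 members were higher (2.14% of all genes) and *Jund* was lower (0.562 and 1.71, 6.69% of all genes lower). With wIAHC libraries weighted equally *Junb*, *Fos* and *Ier2* were higher in c-kit+ IAHC cells, beside 155 of all 5894 genes. In c-kit+CD31+ IAHC cells 7 of 9 members were then higher, beside 191 of all 6049 genes. The same wIAHC libraries serve both E11 comparisons.

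**Figure D5:**
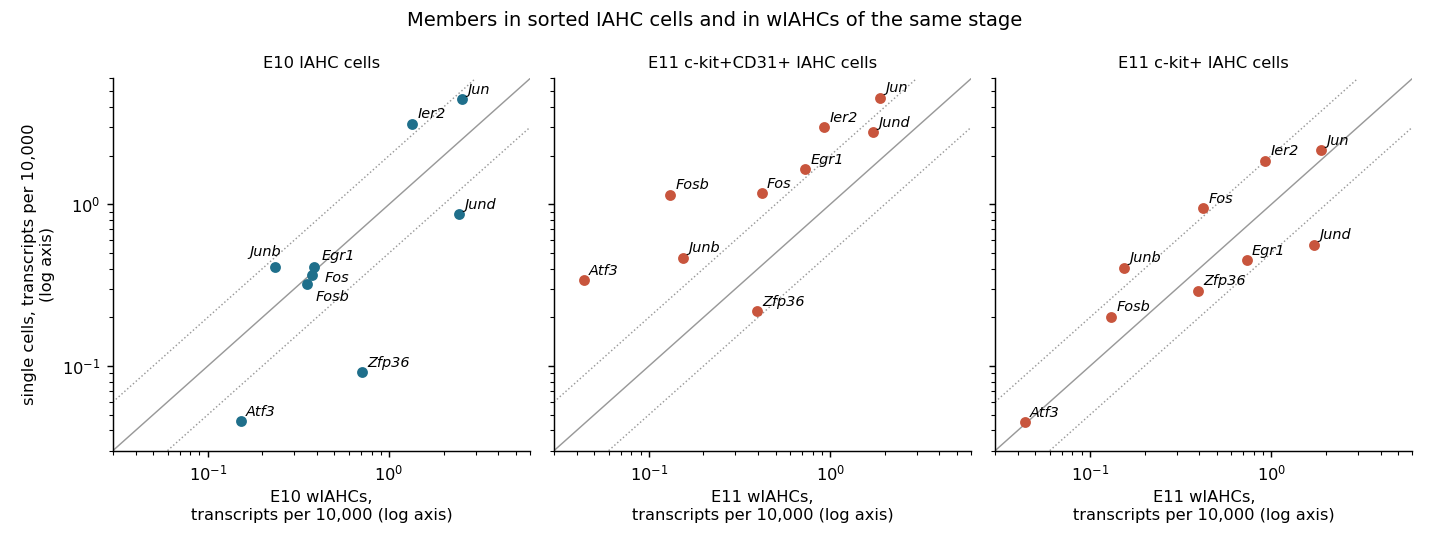
Transcripts per 10,000 of each gene in wIAHCs (x axis, log scale) and in sorted IAHC cells of the same stage (y axis, log scale). The solid line marks equal values and the dotted lines 2-fold differences. In E11 c-kit+CD31+ IAHC cells 6 genes are called above 2-fold, on log2 values with a pseudocount, and in c-kit+ IAHC cells 0, with wIAHC libraries pooled.

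Levels of the remaining list genes place the members in context. Of the AP-1 relatives, *Atf4* (mean over populations 0.945), *Atf2* (0.203) and *Fosl2* (0.117) had most transcripts, and in the steps within a stage *Fosl2* and *Atf4* were the genes called. Of the other immediate early genes these were *Zfp36l2* (0.830), *Mcl1* (0.820) and *Klf2* (0.795), and of the kinases and cofactors *Elk3* (0.725), *Mapk3* (0.571) and *Map2k2* (0.560). The heat shock genes with most transcripts were *Hsp90ab1* (11.3), *Hspa8* (11.2) and *Hsp90aa1* (3.23). *Hspa1b* was highest in E10 IAHC cells (0.808) and was 0.256 in E10 non-HE cells, unlike the order of the members.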

How the data were processed

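Single cells and wIAHCs were sequenced by CEL-Seq. Per the submitters' processing notes, reads were mapped with BWA 0.6.2-r126 and the build is mm10, and the annotation is not given in the sources used here. The study names RaceID2 for further steps. The deposited single-cell values are estimated counts of transcripts made by the authors from UMIs, down-sampled to 3000 (E10) or 5000 (E11) per cell and raised by 0.1, which was taken off. The deposited wIAHC values are estimated counts corrected by the authors for UMI collisions (256 UMI sequences) and not scaled. They were rounded to whole transcripts for the tests, and 90 spike-in entries were left out.

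The members and lists were chosen with earlier results of these data known. Named genes are the 9 members, the 3 genes of each further list with the highest level and each list gene called in wIAHCs, and the 10 genes most like the summed members (at least 0.2 transcripts per cell in 1 population). Genes of a further list that passed 2-fold are named beside their counts. Sensitivity to sorted sets, depth (E11 thinned to 3000), pseudocounts (0.01 and 0.2), minimum level (0.5), macrophage-like cells, haemoglobin and the purification rule was checked. There were 0 identical columns. Differences between sorted sets measure the spread between sets, whose embryos are not known.

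wIAHC libraries with at least 5000 transcripts were tested with edgeR 4.0.16 (TMM, filterByExpr, quasi-likelihood, all 4 groups in 1 fit, Benjamini-Hochberg over all genes, threshold 0.05) in R 4.3.3. Since filterByExpr kept none of the members, the planned fit without a filter is given for them, and its further alternatives were added after seeing the data. DESeq2 1.42.0 was the second tool. The edgeR script was tested on simulated counts. Tables were handled in Python 3.11.15 with pandas 2.3.3, numpy 2.4.6 and scipy 1.17.1, figures with matplotlib 3.10.9, and genes were placed with GENCODE vM21.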

Additional observations from a re-analysis of the deposited data

Results flagged for a closer look

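In E10 dorsal wIAHCs (7 libraries), the highest library stood far from the others for 4 members. These were *Fos* (7.59 transcripts per 10,000, next 1.49), *Fosb* (3.69, next 1.505), *Egr1* (3.02, next 1.08) and *Atf3* (0.350, next 0). The 9 members and their sum were examined in this group, which made 10 distributions. They share libraries and hold many counts of 0, so a chance rate of about 1 in 20 does not hold for them. *Atf3* was detected in 1 of 7 libraries, which alone sets its gap. The highest *Fos* and *Egr1* values were 5.05 and 2.01 transcripts in library 46, which held 6656. No conclusion is drawn from these flags.

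The change of *Fos* between stages differed between dorsal and ventral wIAHCs by the interaction of stage and side without a filter on low counts (log2 difference 4.86, edgeR adjusted p = 0.0123). The settings in which this was lost are given with the result.

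The 52 wIAHC libraries with fewer than 5000 transcripts entered no comparison at that minimum. Some of them entered only an alternative setting of the fit without a filter, which had a lower minimum. Of the 52, 25 held a transcript of a member, and together the 52 held 5.29 member transcripts per 10,000. This is above the limit of 0.299 for a count of 0, which follows from the detection itself. The groups of libraries with at least 5000 transcripts held between 3.98 (E11 dorsal) and 9.81 (E10 dorsal).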

How the results depend on the processing

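No paired analysis was possible because the labels give groups no shared replicate numbers, and single-cell populations are 1 sample each, or share 1 sample in the case of both pre-HSC types. Whether pre-HSC sets with the same number in their column names came from 1 sort is not given, so their values stand side by side with that result, and the collection set of E11 wIAHCs was used as a term. Groups of wIAHCs held 7 to 21 libraries, so leaving out single libraries was added after seeing the data, for the dorsal groups. Summed log2 differences kept their size within the counting error in 140 of 161 alternatives, 21 moved further, and 6 changed sign. Leaving out each sorted set gave summed levels of 7.14 to 10.13 in E10 non-HE, 3.33 to 5.43 in E10 HE, 4.69 to 6.85 in E11 non-HE, 2.06 to 3.77 in type I, 2.00 to 2.76 in type II, 4.255 to 5.02 in c-kit+CD31+ IAHC and 1.759 to 2.50 in c-kit+ IAHC cells. The same gave summed log2 differences of -1.29 to -0.59 for E10 HE against non-HE, -0.71 to -0.0081 for E10 EHT against HE, -0.28 to 0.26 for E11 HE against non-HE, -1.09 to -0.24 for type I against EHT, -0.71 to 0.14 for type II against type I, -1.36 to -0.86 for c-kit+ against c-kit+CD31+ IAHC, -0.80 to -0.24 for E11 against E10 non-HE and 0.052 to 0.75 for E11 against E10 HE. Without the cell richest in member transcripts, a check added after seeing the data, levels were 5.21 (E11 non-HE), 2.29 (type I) and 1.13 (E11 YS), and differences -0.83 (type I against EHT), -0.094 (type II against type I) and -1.94 (E11 YS against IAHC). Without macrophage-like cells E11 EHT cells had 3.98, and under the purification rule c-kit+ IAHC cells had 1.51 and a difference of -1.51. With libraries weighted equally, 3 members were higher in c-kit+ IAHC cells than in wIAHCs, beside 155 of all 5894 genes. Over the 16 comparisons there were 40 member calls, 15 at a pseudocount of 0.2, 47 at 0.01 and 13 at a minimum level of 0.5. The shares of all genes called at these other settings were not computed. At 0.2 the calls went from 5 to 2 between stages in IAHC cells, from 4 to 0 in YS and 2 to 0 in EHT cells, from 7 to 4 for E11 YS and 3 to 1 for E10 YS against IAHC cells, from 5 to 3 between the sorts of IAHC cells, from 2 to 0 between pre-HSC types and from 4 to 2 for E10 HE against non-HE cells, where *Fos* and *Zfp36* remained. With E11 cells thinned to 3000 transcripts, the calls between stages went from 4 to 2 in YS and from 2 to 1 in EHT cells and stayed at 5 in IAHC cells, and within E11 *Atf3* (HE), *Egr1* (type I) and *Fos* (type II) passed 2-fold lower as well.

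In wIAHCs without a filter, 2 members were called on the dorsal side and 1 for the interaction, where the filter leaves none to test. Both counts were 0 with DESeq2, RLE scaling, library totals, a minimum of 10000 transcripts and without E11 collection set 1, and the dorsal count also without set 2. Leaving out dorsal libraries singly gave 1 to 2 on the dorsal side, 0 to 1 for the interaction and 0 to 1 for ventral against dorsal at E11, which was 1 with the collection set as a term. The median dorsal difference of all genes was -0.09 with TMM, 0.05 with RLE, 0 with library totals and 0.52 with DESeq2, and that of the members -1.84, -1.29, -1.51 and -0.87. The causes were not tested. At these depths a member at 0 in a library was not detected and may not be absent.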
